A study of Homo sapiens with 6 samples.

Results

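The 53 genes described here act in mitosis. They cover entry into mitosis, the spindle assembly checkpoint, the trigger of anaphase, the kinetochore, the spindle and cytokinesis. They were taken by symbol from the deposited expression table, and all 53 of 53 were found among its 17110 genes. Mitotic kinesins with KIF symbols were left out, while the kinetochore motor CENPE is a member. Their choice used no measured value as a threshold, but it was made with earlier results of these data known. The cells were CAL-27, an established human line derived from a tongue squamous carcinoma. The sphere group held 3 libraries of CAL-27 cells recovered from suspension culture, which the series' design text calls cancer stem cells. The parental group held 3 libraries of adherent CAL-27 cells. The labels name no treatment or genetic change in either group, and whether both came from the same stock was not tested. The labels leave unsaid if the replicates were grown apart. The p-values therefore speak to the spread among these 6 libraries alone, and that spread may be technical.

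A cell enters mitosis when CDK1 bound to a B-type cyclin is switched on by CDC25 phosphatases, with help from polo-like and Aurora kinases. Chromosomes then attach to the spindle through kinetochores, and unattached kinetochores keep the spindle checkpoint active, which holds back the anaphase-promoting complex (APC/C). Once that complex binds CDC20 it marks securin and cyclin B for destruction, sister chromatids part and the cell divides. Most of these genes are transcribed late in the cell cycle. Their promoters often carry a cell cycle genes homology region (CHR), which MuvB complexes bind, and CCAAT boxes, which NF-Y binds. In the G2 phase and mitosis MuvB works with B-MYB and FOXM1, and in resting cells, as part of the DREAM complex, it represses the same genes.

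The mitosis genes were lower in sphere libraries almost without exception. In limma, with p-values adjusted over 12261 tested genes, 52 of the 53 passed a threshold of 0.05 as lower, against 48.2% of all tested genes. CDC25B was the 1 member that passed as higher, and 35.1% of all tested genes did so. At least 2-fold lower were 48 members, against 14.7% of all tested genes. Every sphere library lay below every parental library in 52 members, and in 48.9% of all tested genes. All 53 passed the filter on low values, a mean of at least 1 TPM over the 6 libraries (TPM are transcript levels scaled per length and to a fixed total). With so many genes past the threshold, the size of a difference tells more than its p-value.

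On the log2(TPM + 1) scale used throughout for differences (sphere minus parental), the members' median was -1.88 and that of all tested genes -0.13. Errors of differences are SE from the fit, and errors of TPM and of ratios are SD over 3 libraries. Of the 53 differences, 45 lay in the lowest 10% of all tested genes and 30 in the lowest 5%. The median member stood at 26.4% of its parental TPM in sphere libraries: 24 members were under 25%, 24 between 25% and 50%, and 5 at 50% or more. The summed TPM of the 53 genes was 1619, 1636 and 1672 in the sphere libraries, against 5229, 5393 and 5315 in the parental libraries. These sums made up 0.162% to 0.167% of all TPM in sphere and 0.523% to 0.539% in parental libraries. Fewer dividing cells and less of these RNAs per dividing cell cannot be told apart in bulk libraries. Replicates lay close together, with a median coefficient of variation over members of 5.37% in sphere and 3.84% in parental libraries.

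**Figure D1:**
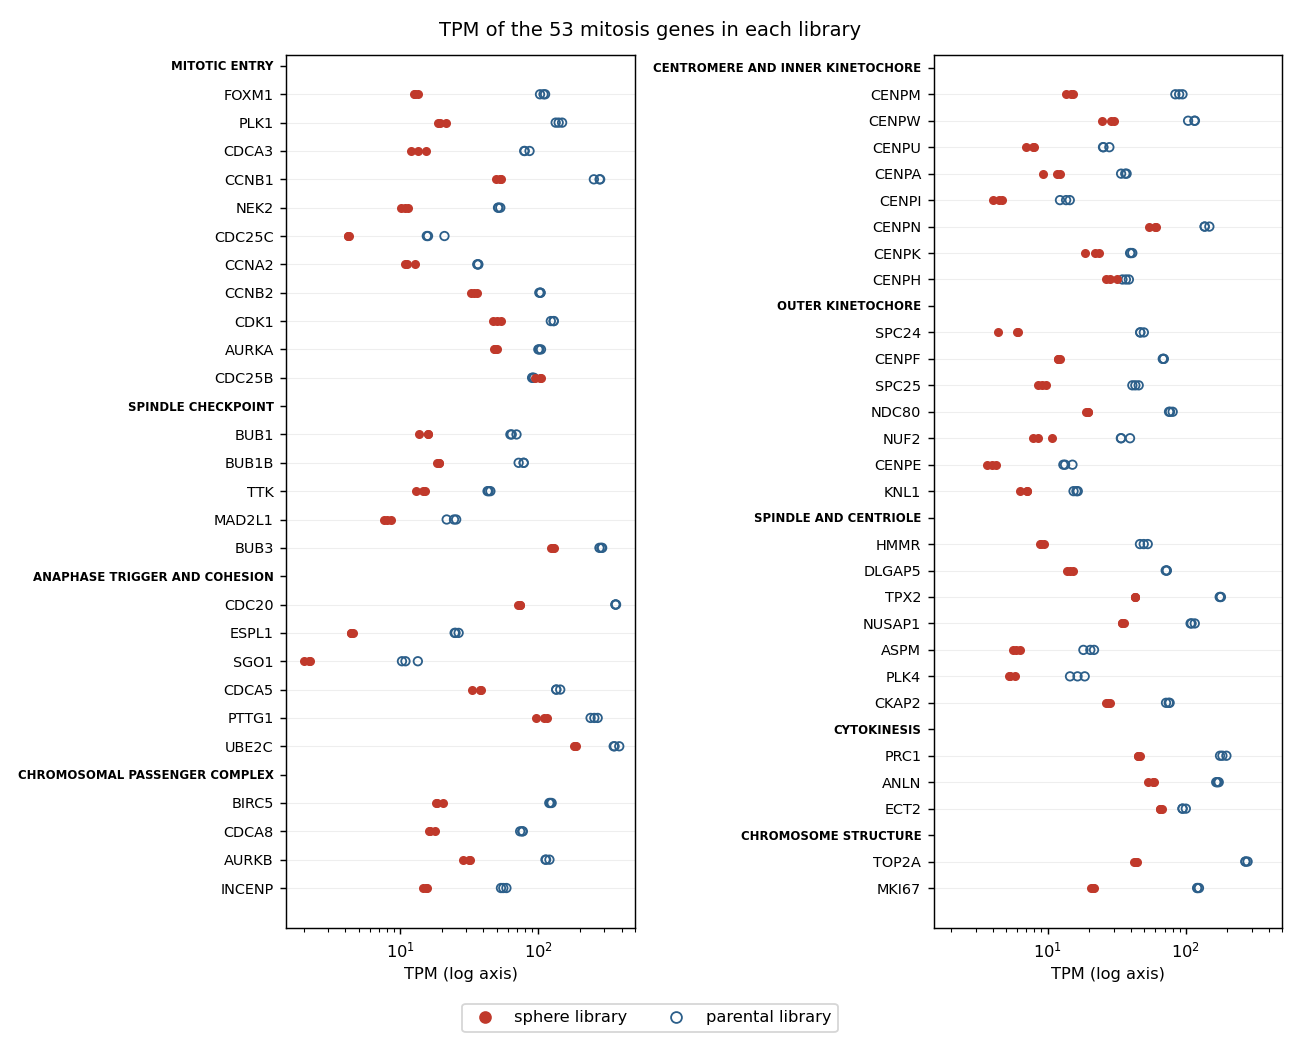
TPM of each of the 53 genes (rows, grouped by role) in each sphere library (filled points) and each parental library (open points), on a log axis. The sphere points lie left of the parental points in 52 rows, and only in the CDC25B row do they lie to the right.

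The order of the members by level was largely kept. Across the 53 genes, mean TPM in sphere and parental libraries correlated at a Spearman rho of 0.883, and the log2 levels at a Pearson r of 0.888. The genes share libraries and are not independent, so these values describe the set. The difference was only weakly related to the parental level (Spearman rho = -0.15). By mean TPM UBE2C was the highest member in both groups and SGO1 the lowest. In parental libraries CDC20 was nearly level with UBE2C, at 363 ± 2.16 TPM and 364 ± 18.3 TPM. Group means ran between 2.14 and 184.5 TPM in sphere libraries, and between 11.5 and 364 TPM in parental libraries. The members lie on 20 chromosomes. For 18 of them RefSeq lists a pseudogene named after the gene, 5 for UBE2C and 4 for NEK2, so the division of 50-base reads between gene and copy is uncertain there.

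The libraries as a whole separated by group. Over the 12261 tested genes the Pearson r of log2(TPM + 1) was 0.995 to 0.997 between libraries of the same group. Between libraries of different groups it was 0.840 to 0.842. Each library listed 15398 to 15448 genes above 0 in sphere and 15045 to 15087 in parental. All 6 epithelial markers looked up (KRT5, KRT14, TP63, CDH1, EPCAM and DSP) were present in both groups. EPCAM was lower in sphere, at 160 TPM in sphere and 311 TPM in parental libraries, and the other 5 were higher in sphere libraries. KRT14, the basal keratin, averaged 7705 TPM in sphere and 4.69 TPM in parental libraries. Of 7 fibroblast markers 6 were in the table, with sums of 15.6 to 17.2 TPM in sphere and 11.97 to 12.39 TPM in parental libraries. These markers did not move together. COL1A1 averaged 16.1 TPM in sphere and 8.15 TPM in parental libraries, and PDGFRB 0.087 TPM in sphere and 2.63 TPM in parental libraries. COL1A2, PDGFRA and LUM also averaged lower in sphere, and COL3A1 was at 0 in every parental library. The 5 leukocyte markers summed to 1.55 to 1.62 TPM in sphere and 1.30 to 1.92 TPM in parental libraries, with PTPRC and CD3E at 0 in every parental library. The 4 endothelial markers summed to 0.26 to 0.30 TPM in sphere and 10.95 to 11.91 TPM in parental libraries, with CDH5 nearly the whole parental sum. The part of these marker differences in the mitosis gene result was not tested.

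The promoters of these genes show what they have in common at the level of sequence. RefSeq windows of 250 bases before and 50 after the annotated start (GRCh38.p14) were found for 43 of the 53 members, 55 windows in all. The members with no window were AURKA, BIRC5, BUB3, CENPH, CENPM, FOXM1, KNL1, TPX2, TTK and UBE2C. The motifs searched on both strands were the CHR forms TTTGAA and TTCGAA, the related TTTAAA, and CCAAT. Matches that overlapped were each counted. The 120 bases up to the start are shown for 8 members, written 5′ to 3′ on the strand of the gene, with all matches in capitals (ATTGG is CCAAT on the other strand). They were picked for contrast. PLK1, MKI67, HMMR and CDCA8 fell more than the median member and hold a CHR within 50 bases of the start. CCNB2 holds one too but fell less than the median member. CCNB1 fell more than the median member and holds the TTTAAA form, CENPK was among the smallest falls, and CDC25B did not fall.
PLK1: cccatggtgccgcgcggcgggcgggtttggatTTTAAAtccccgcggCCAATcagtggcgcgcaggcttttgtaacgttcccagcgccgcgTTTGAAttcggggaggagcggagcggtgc
MKI67: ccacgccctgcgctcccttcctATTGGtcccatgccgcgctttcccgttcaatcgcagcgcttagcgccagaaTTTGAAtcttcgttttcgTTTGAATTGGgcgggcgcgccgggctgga
CCNB2: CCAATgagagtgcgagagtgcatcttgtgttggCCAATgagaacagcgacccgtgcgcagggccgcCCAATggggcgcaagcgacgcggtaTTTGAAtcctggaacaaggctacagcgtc
HMMR: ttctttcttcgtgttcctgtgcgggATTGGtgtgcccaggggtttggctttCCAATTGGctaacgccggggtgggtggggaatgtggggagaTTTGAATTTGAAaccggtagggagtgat
CDCA8: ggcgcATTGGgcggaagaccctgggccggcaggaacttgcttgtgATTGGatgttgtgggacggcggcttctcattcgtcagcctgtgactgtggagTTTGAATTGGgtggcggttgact
CCNB1: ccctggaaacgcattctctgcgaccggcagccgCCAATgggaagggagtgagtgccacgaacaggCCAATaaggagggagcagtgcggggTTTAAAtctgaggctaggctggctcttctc
CENPK: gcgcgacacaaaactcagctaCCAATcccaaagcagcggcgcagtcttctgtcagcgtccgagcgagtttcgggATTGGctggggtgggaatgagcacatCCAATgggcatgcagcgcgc
CDC25B: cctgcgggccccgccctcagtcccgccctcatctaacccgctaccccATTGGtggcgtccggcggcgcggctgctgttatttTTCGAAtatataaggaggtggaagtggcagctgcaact

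The PLK1 stretch is chr16:23678769-23678888 on the plus strand, that of MKI67 chr10:128126424-128126543 on the minus strand, that of CCNB2 chr15:59105026-59105145 on the plus strand and that of HMMR chr5:163460512-163460631 on the plus strand. The CDCA8 stretch is chr1:37692396-37692515 on the plus strand, that of CCNB1 chr5:69167030-69167149 on the plus strand, that of CENPK chr5:65563169-65563288 on the minus strand and that of CDC25B chr20:3796190-3796309 on the plus strand. In PLK1 and CCNB2 a TTTGAA begins 29 bases before the start. CCNB2 has 3 CCAAT boxes ahead of its CHR. In MKI67 and CDCA8 a TTTGAA and an inverted CCAAT share 1 base, and HMMR holds 2 TTTGAA side by side. In CCNB1 the TTTAAA begins 30 bases before the start, behind 2 CCAAT boxes. The CENPK window held CCAAT but none of the 3 hexamers. The CDC25B stretch, from 1 of 4 windows of that gene, holds a TTCGAA 38 bases before the start and a CCAAT box 73 bases before it, although its transcript did not fall.

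Windows of the mitosis genes held these motifs more often than RefSeq windows at large, given here as a description. TTTGAA was found in 30 of 55 member windows (54.5%), against 15.2% of all 35116 windows. TTCGAA was found in 6 (10.9%), against 1.45%, and TTTAAA in 12 (21.8%), against 12.2%. CCAAT was found in 40 (72.7%), against 34.6%. The matches gathered near the start: TTTGAA began in the last 50 bases before it in 16 member windows (29.1%), against 2.56% of all windows. CCAAT lay mostly a little farther out, beginning 51 to 100 bases before the start in 26 member windows (47.3%), against 12.9%. A CCAAT 20 to 50 bases ahead of a TTTGAA or TTCGAA, an arrangement chosen after the windows had been seen, was found in 14 member windows (25.5%), against 1.01%.

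Within the set the motifs went with the size of the fall only loosely. The 14 members with the CCAAT and CHR pair had a median difference of -2.12, and the 29 others with a window -1.82. Members with either CHR form had a median of -1.96 and those with neither -1.58. For TTTAAA it was the other way round, with a median of -1.60 in members that hold it and -1.96 in those that do not. The pair was present in PLK1 and TOP2A, at -2.77 and -2.63, but also in ECT2 and CDC25B, at -0.55 and 0.14. A match in a window is not a bound site.

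**Figure D2:**
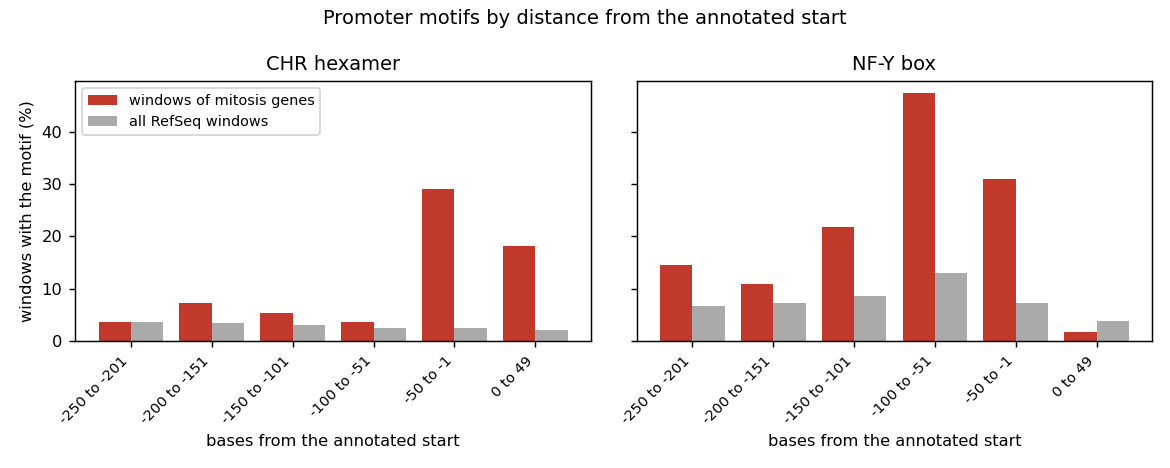
Share of windows (%) with a CHR hexamer (left, the TTTGAA form) and an NF-Y box (right, CCAAT) that begins in each step of 50 bases from the annotated start, for 55 windows of mitosis genes (red) and all 35116 RefSeq windows (grey). The member bars are highest in the last 50 bases before the start for the hexamer (29.1%) and 51 to 100 bases before it for the box (47.3%).

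Of 11 genes that drive entry into mitosis, 10 fell and CDC25B rose, where 48.2% of all tested genes fell and 35.1% rose. FOXM1 (Entrez Gene 2305), the transcription factor of late cell cycle genes, showed the largest fall of all members, with 13.5, 12.9 and 12.6 TPM in the sphere libraries, against 103, 109 and 112 TPM in the parental libraries. Its difference was -2.96 ± 0.05 (SE; limma adjusted p = 3.9e-11), and sphere libraries held 12.03% of the parental level. PLK1 (Entrez Gene 5347), the polo-like kinase that promotes mitotic entry and spindle assembly, was at 21.3, 18.8 and 19.4 TPM in the sphere libraries, against 149, 140.3 and 134 TPM in the parental libraries (difference -2.77 ± 0.06, adjusted p = 1.3e-10). For both genes the sphere libraries differed from each other by little and lay far below the parental ones. CDCA3, a trigger of mitotic entry, stood at 16.7% of its parental level, NEK2, a kinase that parts the centrosomes, at 20.8%, and CCNA2, cyclin A2, at 31.8%.

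CDK1 fell, and its B-type cyclin partners showed larger differences, a contrast between genes that was not tested. CCNB1 (Entrez Gene 891), cyclin B1, was at 52.6, 49.7 and 53.9 TPM in the sphere libraries, against 252, 278 and 280.2 TPM in the parental libraries, a difference of -2.35 ± 0.05 (adjusted p = 1.5e-10). CCNB2, cyclin B2, was at 35.8, 33.9 and 32.5 TPM in the sphere libraries, against 104, 102 and 104 TPM in the parental libraries, a difference of -1.57 ± 0.05 (adjusted p = 9.8e-10). CDK1 (Entrez Gene 983), the kinase that starts mitosis, was at 46.8, 50.5 and 53.96 TPM in the sphere libraries, against 129, 129 and 123 TPM in the parental libraries, a difference of -1.32 ± 0.05 (adjusted p = 9.5e-09). The groups did not overlap for any of these genes, and every sphere library lay below every parental library in 48.9% of all tested genes. CCNB1 was the more abundant cyclin in both groups, but by less in sphere cells: the ratio of CCNB1 to CCNB2 was 1.53 ± 0.11 in sphere and 2.62 ± 0.16 in parental libraries (SD, n = 3 each). AURKA, the Aurora kinase of centrosomes and spindle poles, kept 47.9% of its parental level, and its difference of -1.05 was -0.87 with median-of-ratios scaling.

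The CDC25 phosphatases went apart. CDC25C (Entrez Gene 995), which removes the inhibitory phosphates from CDK1, was at 4.16, 4.19 and 4.28 TPM in the sphere libraries, against 20.9, 15.6 and 15.9 TPM in the parental libraries, a difference of -1.81 ± 0.11 (adjusted p = 1.1e-07). CDC25B (Entrez Gene 994), which activates CDK1 at the centrosome before CDC25C acts, was at 103, 94.9 and 104 TPM in the sphere libraries, against 90.1, 91.1 and 92.9 TPM in the parental libraries. Every sphere library lay above every parental library, but the sphere mean was only 110.2% of the parental mean. Its difference of 0.14 ± 0.04 passed in limma (adjusted p = 0.0169). Without sphere replicate 1 it was 0.12 (adjusted p = 0.0577) and without sphere replicate 3 0.11 (adjusted p = 0.0709), so that the rise was not called in either case. With median-of-ratios scaling it was 0.31 (adjusted p = 0.000102). The ratio of CDC25C to CDC25B was 0.0419 ± 0.0020 in sphere and 0.191 ± 0.035 in parental libraries.

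**Figure D3:**
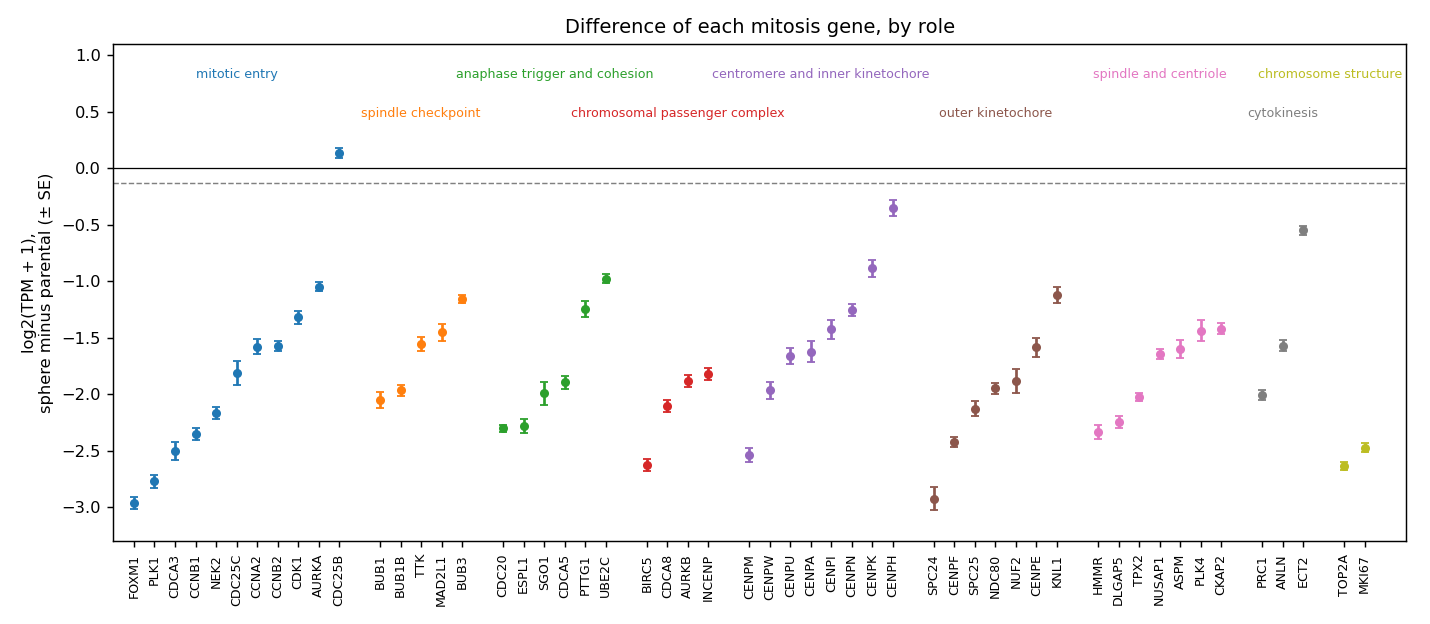
Difference in log2(TPM + 1), sphere minus parental, with its SE, for each of the 53 genes, coloured by role and ordered within it. The dashed line is the median of all tested genes (-0.13). Values reach from -2.96 for FOXM1 to 0.14 for CDC25B, and ECT2 and CENPH stand nearest to the line among the genes that fell.

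All 5 spindle checkpoint genes fell at least 2-fold (14.7% of all tested genes did), with a median difference of -1.56. With median-of-ratios scaling BUB3 was at -0.98, short of 2-fold. BUB1 (Entrez Gene 699), a checkpoint kinase at kinetochores, was at 13.6, 15.8 and 15.9 TPM in the sphere libraries, against 62.7, 69.5 and 64.2 TPM in the parental libraries. BUB1B, which encodes BubR1 of the mitotic checkpoint complex, was at 19, 18.3 and 18.99 TPM in the sphere libraries, against 71.98, 78.2 and 78.3 TPM in the parental libraries. Both differences were near the members' median, at -2.05 ± 0.07 and -1.96 ± 0.05 (adjusted p = 2.5e-09 and 3.9e-10). BUB3 (Entrez Gene 9184), the adaptor that carries both to the kinetochore, was much more abundant and fell less, with 123, 130.4 and 127 TPM in the sphere libraries, against 277, 285 and 289.7 TPM in the parental libraries (difference -1.16 ± 0.04, adjusted p = 1.9e-09). Relative to BUB3, BUB1 stood at 0.119 ± 0.0078 in sphere and 0.231 ± 0.012 in parental libraries, and BUB1B at 0.148 ± 0.0069 in sphere and 0.268 ± 0.0074 in parental libraries. TTK, the MPS1 kinase at the head of the checkpoint, kept 32.6% of its parental level and MAD2L1, which encodes MAD2, 33.9%.

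The 6 genes of the anaphase trigger and of sister chromatid cohesion all fell, 5 of them at least 2-fold. Of all tested genes 48.2% fell, and 14.7% at least 2-fold. CDC20 (Entrez Gene 991), the activator of the APC/C that the checkpoint holds in check, was at 73.9, 71.1 and 73.6 TPM in the sphere libraries, against 362, 362 and 365 TPM in the parental libraries, a difference of -2.30 ± 0.03 (adjusted p = 1.5e-11). ESPL1, separase, which cuts cohesin, was at 4.37, 4.55 and 4.42 TPM in the sphere libraries, against 26.5, 24.8 and 25.2 TPM in the parental libraries (difference -2.28 ± 0.06, adjusted p = 5.3e-10). PTTG1, securin, the inhibitor of separase, was at 95.8, 115 and 109 TPM in the sphere libraries, against 239, 269 and 254 TPM in the parental libraries (difference -1.25 ± 0.07, adjusted p = 7.6e-08). The protease thus stood at 17.5% of its parental level and its inhibitor at 42.02%. UBE2C (Entrez Gene 11065), the ubiquitin-conjugating enzyme of the APC/C, was at 185, 187 and 182 TPM in the sphere libraries, against 356, 385 and 351 TPM in the parental libraries. UBE2C had the highest mean of all members in both groups, though nearly level with CDC20 in parental libraries. Its difference of -0.98 ± 0.04 (adjusted p = 1.2e-08) was just short of 2-fold. SGO1, shugoshin, which protects centromeric cohesin, averaged 2.14 ± 0.13 TPM in sphere and 11.5 ± 1.65 TPM in parental libraries, and CDCA5, sororin, which keeps cohesin on replicated chromatids, 36.5 ± 2.84 TPM in sphere and 138 ± 5.29 TPM in parental libraries.

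The 4 subunits of the chromosomal passenger complex, which corrects wrong attachments, fell to between 15.5% and 27.0% of their parental levels. BIRC5 (Entrez Gene 332), survivin, was at 18.3, 18.2 and 20.5 TPM in the sphere libraries, against 122, 125 and 120 TPM in the parental libraries, a difference of -2.63 ± 0.05 (adjusted p = 1.0e-10). AURKB, the kinase of the complex, was at 32.03, 28.5 and 31.5 TPM in the sphere libraries, against 113, 114 and 120.3 TPM in the parental libraries, a difference of -1.88 ± 0.05 (adjusted p = 8.3e-10). INCENP, its scaffold, averaged 15.2 ± 0.54 TPM in sphere and 56.03 ± 2.56 TPM in parental libraries, and CDCA8, borealin, 16.9 ± 0.84 TPM in sphere and 75.8 ± 1.74 TPM in parental libraries. The ratio of INCENP to AURKB barely moved, at 0.495 ± 0.015 in sphere and 0.485 ± 0.027 in parental libraries, and the groups overlapped. The Aurora kinases diverged: the ratio of AURKA to AURKB was 1.60 ± 0.14 in sphere and 0.884 ± 0.013 in parental libraries, so AURKA was the more abundant of the pair in sphere cells and AURKB in parental cells.

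The 8 genes of the centromere and inner kinetochore all fell, as did 48.2% of all tested genes. Their range was the widest of any group in which every gene fell, from -2.54 to -0.35. CENPA (Entrez Gene 1058), the histone H3 variant that marks centromeres, was at 12.3, 11.7 and 9.18 TPM in the sphere libraries, against 33.9, 37.2 and 36.4 TPM in the parental libraries (difference -1.62 ± 0.09, adjusted p = 1.2e-07). CENPH, CENPI, CENPK and CENPM belong to 1 subcomplex of the inner kinetochore. CENPM (Entrez Gene 79019) was at 13.5, 14.8 and 15.3 TPM in the sphere libraries, against 94.5, 83.9 and 89.3 TPM in the parental libraries, a difference of -2.54 ± 0.06 (adjusted p = 3.2e-10). CENPH (Entrez Gene 64946) was at 27.98, 26.2 and 31.5 TPM in the sphere libraries, against 34.7, 36.8 and 38.6 TPM in the parental libraries, a difference of -0.35 ± 0.07 (adjusted p = 0.00107), the smallest fall of all members. CENPM was thus below CENPH in sphere cells and above it in parental cells, with a ratio of CENPM to CENPH of 0.511 ± 0.048 in sphere and 2.44 ± 0.25 in parental libraries.

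CENPK kept 53.2% of its parental level and CENPI 32.5%. CENPN, which reads the CENPA nucleosome, kept 41.6%, CENPU 29.04%, and CENPW, a histone-fold partner of CENPT, 25.03%. Scaling by the median of ratios in place of TPM alone moved the median of all tested genes by 0.17, to 0.03, and the members' median to -1.71. The CENPH difference was then -0.18 (adjusted p = 0.0345).

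All 7 genes of the outer kinetochore, which grips the microtubules, fell at least 2-fold (14.7% of all tested genes did). With median-of-ratios scaling KNL1 was at -0.96, short of 2-fold. The NDC80 complex has 4 subunits, and each fell, though not alike. SPC24 (Entrez Gene 147841) was at 6.05, 5.99 and 4.35 TPM in the sphere libraries, against 46.7, 46.7 and 49.6 TPM in the parental libraries, a difference of -2.92 ± 0.10 (adjusted p = 3.0e-09). NDC80 (Entrez Gene 10403), which contacts the microtubule, was at 19.6, 19.6 and 18.9 TPM in the sphere libraries, against 75.5, 76.8 and 80.2 TPM in the parental libraries, a difference of -1.95 ± 0.05 (adjusted p = 2.4e-10). SPC25, the partner of SPC24, averaged 9.10 ± 0.62 TPM in sphere and 43.2 ± 2.28 TPM in parental libraries, and NUF2, the partner of NDC80, 9.04 ± 1.57 TPM in sphere and 35.7 ± 3.18 TPM in parental libraries. Relative to NDC80, SPC24 stood at 0.282 ± 0.045 in sphere and 0.615 ± 0.0058 in parental libraries, while NUF2 stood at 0.468 ± 0.091 in sphere and 0.462 ± 0.047 in parental libraries. CENPF, a large coiled-coil protein of the outer kinetochore, fell to 17.5% of its parental level. CENPE, the kinetochore motor that moves chromosomes to the metaphase plate, fell to 28.5%, and KNL1, the scaffold on which BUB3 docks, to 42.6%.

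Ratios were compared for 11 pairs, chosen after the values had been seen. The pairs of Aurora kinases, B-type cyclins and CDC25 phosphatases are related genes, and the others share a complex or the checkpoint. No share among other gene pairs was computed. The groups did not overlap in 9 of them. In an exact two-sided permutation test with 3 libraries against 3 the smallest possible p is 0.10, which these 9 reached (0.122 after adjustment over the 11 pairs), so none could pass 0.05. The other pairs were NUF2 to NDC80 (exact permutation p = 1) and INCENP to AURKB (exact permutation p = 0.70).

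The 7 genes of the spindle and centriole fell at least 2-fold each, as did 14.7% of all tested genes. TPX2 (Entrez Gene 22974), which activates AURKA on spindle microtubules, was at 43.03, 42.8 and 43.1 TPM in the sphere libraries, against 176, 179 and 178 TPM in the parental libraries, a difference of -2.02 ± 0.04 (adjusted p = 4.4e-11). HMMR, a spindle pole protein and hyaluronan receptor, was at 8.72, 8.96 and 9.45 TPM in the sphere libraries, against 49.5, 52.9 and 46.5 TPM in the parental libraries, a difference of -2.33 ± 0.06 (adjusted p = 5.3e-10). The 3 sphere libraries lay within a narrow range for both. DLGAP5, a stabiliser of kinetochore fibres, stood at 20.02% of its parental level, ASPM, a spindle pole protein, at 29.6% and NUSAP1, which bundles spindle microtubules, at 31.4%. PLK4, the kinase that starts centriole duplication, stood at 32.98% and CKAP2, a microtubule-associated protein, at 36.6%.

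Of the 3 cytokinesis genes, PRC1 and ANLN fell at least 2-fold (14.7% of all tested genes did) and ECT2 did not. PRC1, which bundles microtubules of the central spindle, was at 44.7, 45.3 and 46.5 TPM in the sphere libraries, against 177, 184 and 196 TPM in the parental libraries, a difference of -2.00 ± 0.05 (adjusted p = 2.4e-10). ANLN, anillin of the contractile ring, averaged 56.4 ± 2.70 TPM in sphere and 169 ± 3.6 TPM in parental libraries. ECT2 (Entrez Gene 1894), the exchange factor that activates RhoA at the cleavage site, was at 65.1, 64.4 and 67.1 TPM in the sphere libraries, against 94.5, 99.9 and 94.5 TPM in the parental libraries, a difference of -0.55 ± 0.04 (adjusted p = 7.9e-07), and kept 68.1% of its parental level.

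The proliferation markers of chromosome structure were among the genes that fell most. TOP2A (Entrez Gene 7153), the topoisomerase that untangles sister chromatids, was at 42.4, 43.3 and 43.9 TPM in the sphere libraries, against 271, 279.6 and 269 TPM in the parental libraries, a difference of -2.63 ± 0.04 (adjusted p = 1.0e-11). MKI67 (Entrez Gene 4288), the Ki-67 protein that coats mitotic chromosomes, was at 20.7, 21.5 and 21.4 TPM in the sphere libraries, against 121, 121 and 124 TPM in the parental libraries, a difference of -2.47 ± 0.04 (adjusted p = 2.9e-11). Both kept under 25% of the parental level, at 15.8% and 17.3%.

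Lists of other genes of the same machinery differed in how many of their genes fell. Beside these counts stand the shares of all tested genes: 48.2% lower, 35.1% higher, and 14.7% at least 2-fold lower. Counts near those shares say little about a list. Of 30 other kinetochore and checkpoint genes, 25 fell (14 at least 2-fold), 3 rose and 2 did not pass, with a median difference of -0.95. ZWINT, which links KNL1 to the checkpoint machinery, fell as far as the strongest members, at 28.4 ± 0.62 TPM in sphere and 219 ± 7.68 TPM in parental libraries. TRIP13, the ATPase that remodels MAD2, averaged 17.8 ± 0.998 TPM in sphere and 101 ± 2.62 TPM in parental libraries. PMF1, of the MIS12 complex, rose, at 94.99 ± 0.0839 TPM in sphere and 67.1 ± 4.52 TPM in parental libraries. Of 17 APC/C subunits and regulators, 11 fell (4 at least 2-fold), 3 rose and 3 did not pass (median -0.44). The subunit ANAPC15 fell to 24.5% of its parental level, ANAPC13 rose to 175%, and FBXO5, the inhibitor EMI1, fell to 42.6%. With median-of-ratios scaling 5 APC/C genes rose and 9 fell.

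Condensin, which compacts mitotic chromosomes, moved with the members: all 8 genes fell, 7 at least 2-fold (median -1.71), and NCAPD2 averaged 34.5 ± 0.34 TPM in sphere and 147 ± 2.58 TPM in parental libraries. Of 12 cohesin genes 8 fell (3 at least 2-fold) and 4 rose (median -0.40). The acetyltransferases of cohesin went opposite ways, with ESCO2 at 1.97 ± 0.33 TPM in sphere and 21.7 ± 1.73 TPM in parental libraries and ESCO1 at 15.4 ± 1.35 TPM in sphere and 9.65 ± 0.87 TPM in parental libraries. Without sphere replicate 3, or without parental replicate 3, 2 cohesin genes rose instead of 4. Of 11 genes of MuvB, DREAM and B-MYB, 9 fell (5 at least 2-fold) and 2 rose (median -0.85). MYBL2, B-MYB, averaged 13.4 ± 0.55 TPM in sphere and 73.02 ± 0.84 TPM in parental libraries. RBL2, the p130 subunit of DREAM, was at 52.5, 55.2 and 52.2 TPM in the sphere libraries, against 24.9, 25.7 and 23.7 TPM in the parental libraries, and its rise of 1.08 ± 0.05 (adjusted p = 2.2e-08) was the only rise of at least 2-fold in the 10 pathway lists as fitted. With median-of-ratios scaling the rise of PLK3, one of the cytokinesis genes, was 1.104.

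Of 18 further mitotic kinases and phosphatases with their regulators, 15 fell (7 at least 2-fold), 1 rose and 2 did not pass (median -0.84). The kinase PBK averaged 9.89 ± 0.47 TPM in sphere and 79.7 ± 0.41 TPM in parental libraries, CKS2, a binding partner of CDK1, 207 ± 17.99 TPM in sphere and 659 ± 33.9 TPM in parental libraries, and ARPP19, an inhibitor of the phosphatase PP2A, rose, at 89.3 ± 5.89 TPM in sphere and 72.5 ± 2.11 TPM in parental libraries. The number that rose was 2 without sphere replicate 2 or without parental replicate 1, and 3 with median-of-ratios scaling. Of 20 genes of the centriole, centrosome and augmin, 16 fell (3 at least 2-fold), 2 rose and 2 did not pass (median -0.50). STIL, a centriole assembly factor, was at 24.9% of its parental level and PCNT, pericentrin, at 131%. Of 12 other cytokinesis genes 8 fell (4 at least 2-fold), 3 rose and 1 did not pass (median -0.27). Only 1 of them rose without sphere replicate 3. CEP55, which acts in abscission, fell to 27.6% of its parental level and PLK3, a polo-like kinase induced by stress, rose to 198%.

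The mitotic kinesins and the DNA replication genes, like condensin, had medians near that of the members. All 12 kinesins fell, 11 at least 2-fold, with a median of -1.88, the same as the members' median to 2 decimals. KIFC1, a minus-end motor that gathers spindle poles, averaged 23.04 ± 1.86 TPM in sphere and 124 ± 2.17 TPM in parental libraries. All 36 DNA replication genes fell, 34 at least 2-fold, with a median of -1.70. GINS2, of the replicative helicase, averaged 7.08 ± 0.23 TPM in sphere and 52.3 ± 2.28 TPM in parental libraries. Whether the members differed from these lists as a group was not tested.

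**Figure D4:**
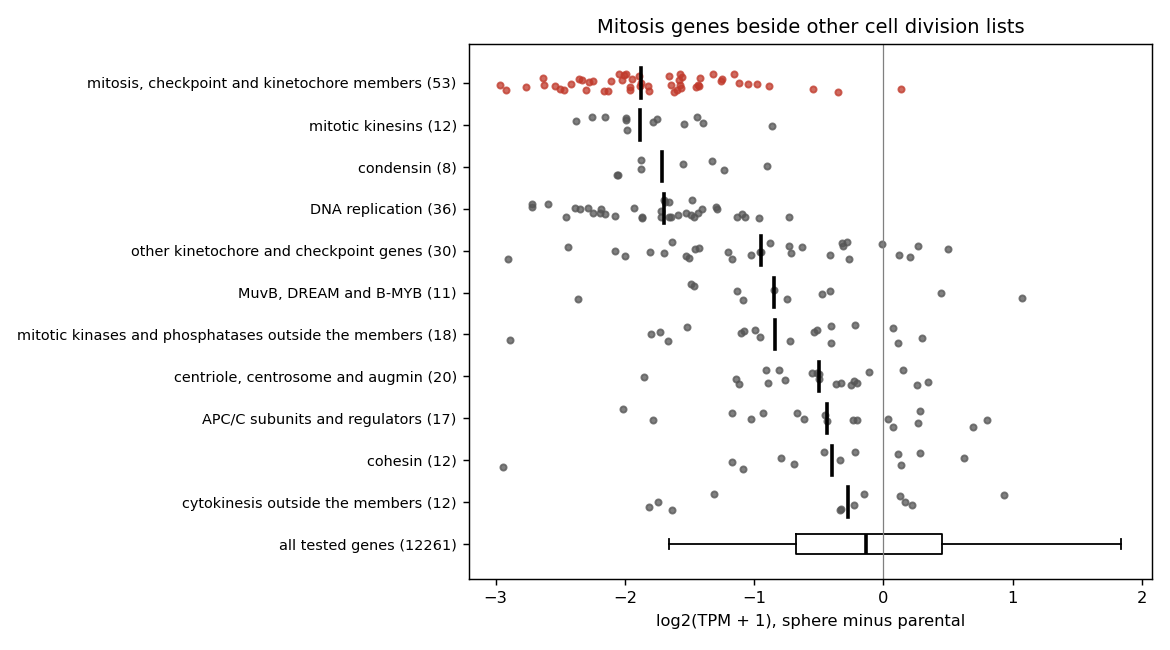
Difference in log2(TPM + 1), sphere minus parental, for each of the 53 mitosis genes (red points), for each gene of 10 other cell division lists (grey points, number of genes in brackets) and for all tested genes (box from the lower to the upper quartile, whiskers at the 5th and 95th percentiles). Bars mark medians: -1.88 for the members, -1.88 for the kinesins, -1.70 for DNA replication and -0.13 for all tested genes.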

How the data were processed

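Total RNA extracted with Trizol was read on a BGISEQ-500 in single-end reads of 50 bases, per the labels' protocols. The authors deposited 1 table of TPM for 17110 genes with Entrez Gene IDs, per the file headers. Its columns are named Control and Sphere, and Control was taken as parental. HISAT and Bowtie2 are named, with no version, in the submitters' processing notes. The notes also name GRCm38.p6, a mouse build, although the IDs are human: 17052 matched human RefSeq. Which build gave the values is unclear. Not given in the sources used here are the counting tool, the annotation and the use of strand. TPM keeps no depth, so precision rests on the spread between libraries.

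Genes that averaged at least 1 TPM were fitted with limma 3.58.1 in R 4.3.3 (lmFit, eBayes with trend) on log2(TPM + 1), two-sided, with Benjamini-Hochberg adjustment over 12261 genes. This scale understates differences of low genes. The script was tested on simulated data. Same-numbered libraries were not treated as pairs, and no block was used in the main fit. Correlations of their deviations were 0.0177, -0.0179 and -0.0545, which cannot settle whether they were paired. Ratios and motifs were computed in Python 3.11.15. The members and lists were chosen with earlier results of these data known. All members are named, and of other lists the largest rise and fall past the threshold with groups that did not overlap and at least 5 TPM in the higher group, besides MYBL2, FBXO5, CKS2 and TRIP13. Promoter sequences are from RefSeq (GRCh38.p14); their first 30 transcribed bases were found in a GENCODE 29 transcript for 50 of 55 windows. The 14 alternatives changed the pseudocount (0.1), the filter (none, or 5 TPM on average), the scaling (median of ratios), the variance model (robust prior, no trend, array weights) or the libraries (each left out in turn), or added a replicate block.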

Additional observations from a re-analysis of the deposited data

How the results depend on the processing

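Of the 53 members, 52 were lower in sphere libraries under each of the 14 alternatives, and 45 to 49 were at least 2-fold lower (48 as reported), with 45 under median-of-ratios scaling, where AURKA, BUB3 and KNL1 were short of 2-fold. The count of members higher ranged from 0 to 1 when 1 library was left out, with CDC25B lost without sphere replicate 1 or 3. All genes past the threshold numbered 10221 as reported, 8485 to 11503 over the alternatives, and 9832 to 10044 with 1 library fewer. With median-of-ratios scaling 5 APC/C genes and 3 of the further kinases and phosphatases were higher, in place of 3 and 1. Without the trend 2 cohesin genes were higher in place of 4. Leaving out 1 library gave 2 to 4 higher cohesin genes, 1 to 2 higher kinases and phosphatases and 1 to 3 higher cytokinesis genes. The cause of these shifts was not tested. None of the 73 single genes recomputed changed direction under these alternatives. Whether the same replicate numbers mark paired libraries is unknown. With a replicate block 52 members remained lower, 48 of them at least 2-fold, and the other cytokinesis genes that were higher numbered 4 in place of 3. All genes past the threshold were then 10192, and the other list counts were as reported. The depth behind the TPM is unknown, so no counting interval can be given.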

Other observations

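The pair of a CCAAT and a CHR form described for the mitosis genes was also present in a window of 116 of 10049 other tested genes (1.15%). Of these 116 genes, 71 were lower in sphere libraries in limma (61.2%), against 47.8% of the other tested genes with a window but no pair. Higher were 27 of the 116, and 35.1% of all tested genes were higher. At least 2-fold lower were 41 of the 116 (35.3%), against 13.6% of the other tested genes with a window but no pair. The median difference of the 116 was -0.55, against -0.13. Of the 41, 14 belong to the pathway lists above, among them ZWINT, KIFC1 and NCAPD2. Others include ASF1B, a histone chaperone of replication, at 21.0 ± 1.35 TPM in sphere and 136 ± 1.52 TPM in parental libraries, CDKN3, a phosphatase that acts on cyclin-dependent kinases, at 33.4 ± 0.45 TPM in sphere and 134 ± 4.02 TPM in parental libraries, and CCNF, cyclin F, at 6.38 ± 0.18 TPM in sphere and 21.9 ± 1.01 TPM in parental libraries. These 3 genes were picked after their values had been seen and do not stand for all of the 41. The 41 also held HLA-DRB1 (difference -2.81), HLA-DPB1 (-2.30), TCF4 (-1.89) and PDPN (-1.77). Among the genes with the pair that rose, LCE6A, IL1RL1 and H2BC5 had the largest differences, at 3.99, 3.43 and 2.49. Membership of the 116 genes was set by sequence alone, but the arrangement had been chosen on the members. The single motifs showed smaller contrasts among the other tested genes. At least 2-fold lower were 17.95% with either CHR form and 13.1% without. For CCAAT the shares were 15% and 12.9%, and for TTTAAA 16.4% and 13.5%. Median differences were -0.17 with either CHR form and -0.13 without.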
